A study of Mus musculus with 8 samples.

Results

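The 4 miRNAs described here are mmu-miR-193b and mmu-miR-365 (mouse miRNAs, below without the prefix), which are encoded next to each other on mouse chromosome 16, and the related mmu-miR-193 with its partner strand mmu-miR-193*, encoded on chromosome 11 beside a further copy of the miR-365 hairpin. They were taken by their exact names in the array annotation, which gave 4 of the 576 miRNAs on the array (566 of them of the mouse), 10 of its 1712 miRNA probes and 80 of its 11540 miRNA spots. The names miR-193b* and miR-365* are not among the miRNAs of this array design. The tissue was whole brown fat from male C57Bl6N mice 8 weeks of age, taken from 3 mice (mice 1 to 3) after 24 h at 8 °C and from 3 mice (mice 4 to 6) kept at room temperature, 21 °C. No allele and no agent is given for either group beyond the strain and the temperature. RNA of each mouse was labelled with Cy3 and hybridised to 1-colour Agilent miRNA arrays, 8 in all, because mouse 1 and mouse 4 had 2 arrays each, which were averaged. All 8 arrays shared 1 slide, on which the cold arrays took up one row and the room temperature arrays the other, so slide row and temperature cannot be told apart. The comparison asks whether these miRNAs of brown fat differ in level after a day in the cold.

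A miRNA is cut from a hairpin transcript and guides a silencing complex to messenger RNAs through its seed, a short stretch near the 5′ end. The miR-193b and miR-365 cluster is richer in brown than in white fat, and in cultured brown preadipocytes it was reported to be needed for the brown fat programme, under the regulator Prdm16 and through repression of Runx1t1, although mice lacking the cluster were later reported to form brown fat. Cold is the natural stimulus of brown fat, acting through noradrenaline and cAMP on heat production.

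The mature sequences show which of the 4 can share targets and which probes read near-identical molecules. They are given as RefSeq lists them for GRCm38.p6, in which 4 of 4 names were matched, and the capitals mark the seed, bases 2 to 8.

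miR-193b: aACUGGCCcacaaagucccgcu

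miR-193: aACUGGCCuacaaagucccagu

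miR-193*: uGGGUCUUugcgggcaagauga

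miR-365: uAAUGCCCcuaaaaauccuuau

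The seed ACUGGCC of miR-193b and miR-193 was held by 2 of the 1679 mature mouse names in that table, these same 2. They share 19 of 22 bases and differ by C9U, G20A and C21G, counted from the 5′ end with the base of miR-193b first. The seeds AAUGCCC of miR-365 and GGGUCUU of miR-193* each belonged to 1 name. The mature miR-193b lies at chr16:13449570-13449591 and the mature miR-193 at chr11:79712009-79712030, both on the plus strand, with miR-193* in the same hairpin as miR-193 at chr11:79711975-79711996.

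The miR-365 hairpins are printed because they show that an array cannot say which of them a miR-365 signal came from. The capitals mark the mature strand.

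Mir365-1: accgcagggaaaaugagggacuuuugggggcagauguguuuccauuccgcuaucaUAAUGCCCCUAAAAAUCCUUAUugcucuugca

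Mir365-2: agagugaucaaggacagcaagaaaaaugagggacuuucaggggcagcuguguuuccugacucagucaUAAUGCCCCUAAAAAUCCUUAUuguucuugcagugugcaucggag

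The mature strand is the same run of 22 bases in both, at chr16:13453895-13453916 in Mir365-1 and at chr11:79726467-79726488 in Mir365-2. On chromosome 16, 4238 bases separate the Mir193b hairpin from Mir365-1, and both hairpins lie inside the bounds of the long noncoding RNA genes Gm32817 and Gm53058. On chromosome 11, 14365 bases separate Mir193a from Mir365-2, and neither overlaps another gene of the table.

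The layout of the array touches every value below. Each of the 10 probes was printed in 5 or 10 spots scattered over a grid of 192 rows, of which rows 1 to 64 are called low, 65 to 128 middle and 129 to 192 high. Over the spots of 267 bright probes, the median signal on the cold arrays was lowest in the first band of 24 rows and on the room temperature arrays in the last. The first band held 0.0684 to 0.146 times the signal of the last band on the 4 cold arrays and 4.18 to 5.32 times on the 4 room temperature arrays. The ratio of the cold to the room temperature signal therefore climbed from 0.0797 in rows 1 to 24 through 0.527 in rows 73 to 96 to 4.39 in rows 169 to 192. The slope ran one way on every cold array and the other way on every room temperature array, so it, too, cannot be told apart from temperature.

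**Figure D1:**
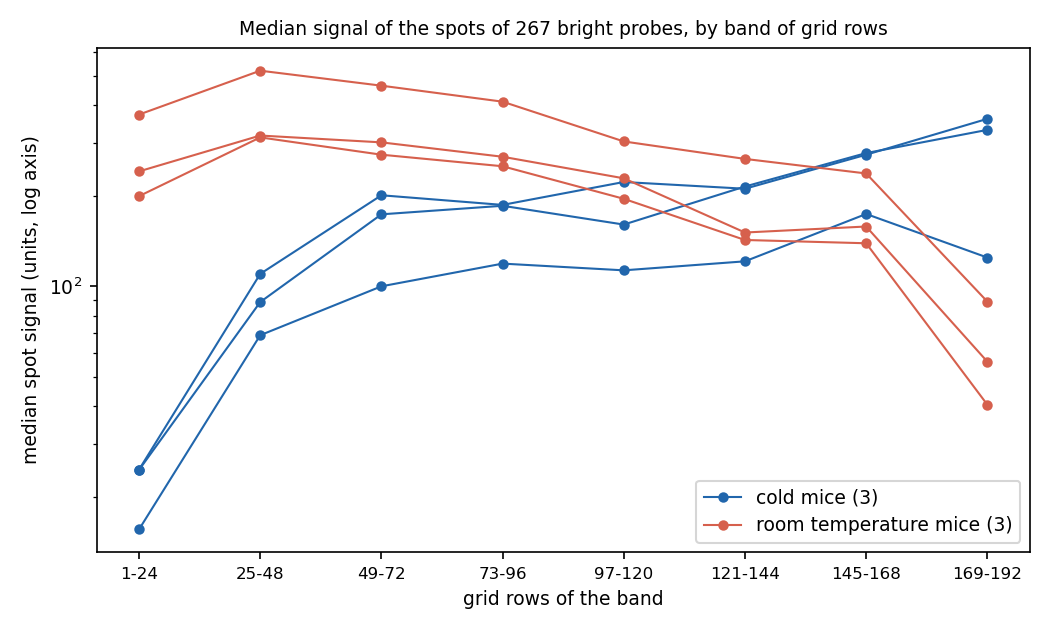
Median signal (units, log axis) of the spots of 267 bright probes in each band of 24 grid rows, with 1 line per mouse. The 3 cold mice climb from rows 1-24 towards the last rows and the 3 room temperature mice drop towards rows 169-192, where the ratio of cold to room temperature is 4.39 against 0.0797 in rows 1-24.

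The position of a probe's spots moved with its change. With each array divided by its 75th percentile, the median log2 change (cold minus room temperature) was −0.26 over the 109 probes whose spots lay at the lowest mean rows, 0.04 over the middle 110 and 0.32 over the 110 at the highest. Of these probes, 5, 10 and 33 were called higher and 25, 4 and 4 lower. Across the 329 probes Spearman's correlation of change and mean row was 0.55, and it was −0.11 once every spot had been divided by the median of its own tile, one of 24 pieces of the grid (8 bands of rows by 3 of columns). The tile medians came from the 267 bright probes, which are themselves among these 329. The fall of the correlation was thus built into that scaling and is no check of it. Probes of one array are not independent replicates, so these are descriptions of the arrays. The changes below are given with the array-wide scaling and then with the tile scaling, which was chosen after seeing the data. The tile scaling also took the median of a probe's spots, where the array-wide scaling took their mean.

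Levels below, unless called linear, are log2 of the signal relative to the array's 75th percentile over bright probes. A level of 0 is thus that percentile, and a level is compared only with the same probe or miRNA in other mice. All 4 miRNAs could be measured, through 8 of the 10 probes, and each of these 8 was well above background on 4 of 4 cold and 4 of 4 room temperature arrays. In limma, after Benjamini-Hochberg adjustment, 2 of these 4 passed the threshold of 0.05 with the array-wide scaling, both higher in the cold, where 16.4% of all 189 measured miRNAs passed (18 higher and 13 lower). Under the tile scaling 0 of the 4 passed, against 11.6% of all (14 higher and 8 lower). An unadjusted p under 0.05 in limma was held there by 1 of the 4 and by 60 of all 189 miRNAs. With the array-wide scaling it was held by 3 of the 4 and by 62 of all 189. The median change of all miRNAs was −0.02 and 0.07 in the 2 scalings.

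miR-193b, the member for which the cluster is best known in brown fat, stood apart between the groups, with each cold mouse on the higher side. Its array-wide levels were 1.44, 1.52 and 1.37 in cold mice 1, 2 and 3 and 0.79, 0.80 and 0.81 in room temperature mice 4, 5 and 6. The groups lay apart with a wide gap, and the room temperature mice were almost equal in this mean over both probes. In each probe alone they were further apart. Among them mouse 5 was the lowest in A_54_P3060 (−0.39) and the highest in A_54_P3061 (2.00). The difference was 0.64 ± 0.11 (SE, n = 3 mice per group), or 1.56-fold, with an adjusted p of 0.0111 (limma, Benjamini-Hochberg). Its tile-scaled levels were 1.28, 1.36 and 1.37 in the cold mice and 0.91, 0.96 and 0.73 in the room temperature mice. The groups still did not overlap, the gap was smaller, and the change was 0.47 ± 0.12, or 1.38-fold, which missed the threshold (adjusted p = 0.0523, limma, Benjamini-Hochberg). Without mouse 6 the array-wide change was 0.65 and its adjusted p 0.0519. Groups that did not overlap were common on these arrays, at 39.7% of all miRNAs with the array-wide scaling and 33.9% with the tile scaling, and 2 of the 4 members (miR-193b and miR-193*) were among them in each.

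The change of miR-193b also turned on the scaling between arrays. Unscaled, its log2 signal stood at 0.19 ± 0.36 (SE from limma, n = 3) cold minus room temperature, and the groups overlapped. Without scaling limma gave every member this same SE, so it is not the spread of miR-193b alone. The 75th percentile by which arrays were divided was 574 to 918 units on the cold arrays and 875 to 1408 units at room temperature. Unscaled miR-193b signals thus overlapped between groups of arrays whose 75th percentile was mostly lower in the cold. The median change of all miRNAs without scaling was −0.46, below the 0.19 of miR-193b. Setting one against the other is itself a scaling between arrays, so it is no separate view of the change.

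Both miR-193b probes moved the same way. Probe A_54_P3060 gave 912, 1373 and 1330 units in cold mice and 906, 667 and 1264 units at room temperature. These raw signals overlap between the groups. Scaled array-wide, it ran to 0.54, 0.72 and 0.54 in cold mice and −0.13, −0.39 and −0.15 at room temperature, a change of 0.82 ± 0.14 (SE, n = 3; adjusted p = 0.00941, limma, Benjamini-Hochberg), and the groups did not overlap. Of its 10 spots, 3 lay in the low rows, 1 in the middle and 6 in the high rows, and the cold to room temperature ratio of its signal there was 0.576, 1.14 and 2.07. Its lone spot in row 20 gave a mean of 401 units in the cold and 1820 at room temperature, and that in row 188 gave 600 and 61.6 units. The same molecule was thus brighter or dimmer in the cold depending on where its spot was printed. Tile-scaled, the change of A_54_P3060 was 0.48 ± 0.18 (adjusted p = 0.108, limma, Benjamini-Hochberg). The arrays of one mouse, first minus second, then differed by 0.61 in mouse 1 and −0.50 in mouse 4. Over all probes the median absolute difference was 0.36 and 0.26. Read singly, the second array of mouse 1 (−0.03) lay under that of mouse 4 (0.22) and under mouse 5 (0.19). The groups of this probe were thus apart in that scaling only with the arrays of a mouse averaged.

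Probe A_54_P3061, the brighter of the miR-193b probes, read 3219, 4177 and 4206 units in cold mice and 3225, 3492 and 4816 units at room temperature. The group means of 3868 ± 562 and 3844 ± 852 units (SD, n = 3) were nearly equal, and 5 of its 10 spots lay in the middle rows. Its array-wide levels were 2.34, 2.32 and 2.20 in the cold and 1.71, 2.00 and 1.77 at room temperature, a change of 0.46 ± 0.14 (SE, n = 3; adjusted p = 0.0477, limma, Benjamini-Hochberg). The scaled groups lay apart although the unscaled ones did not. Tile-scaled, it stood at 0.45 ± 0.16 (adjusted p = 0.0982), the least moved of the 8 probes in that step. Its tile-scaled arrays of one mouse, first minus second, differed by 0.51 in mouse 1 and −0.06 in mouse 4. The scanner software had set aside up to 3 of its spots per array as outliers, and 6 of 10 spots had a value in all mice.

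**Figure D2:**
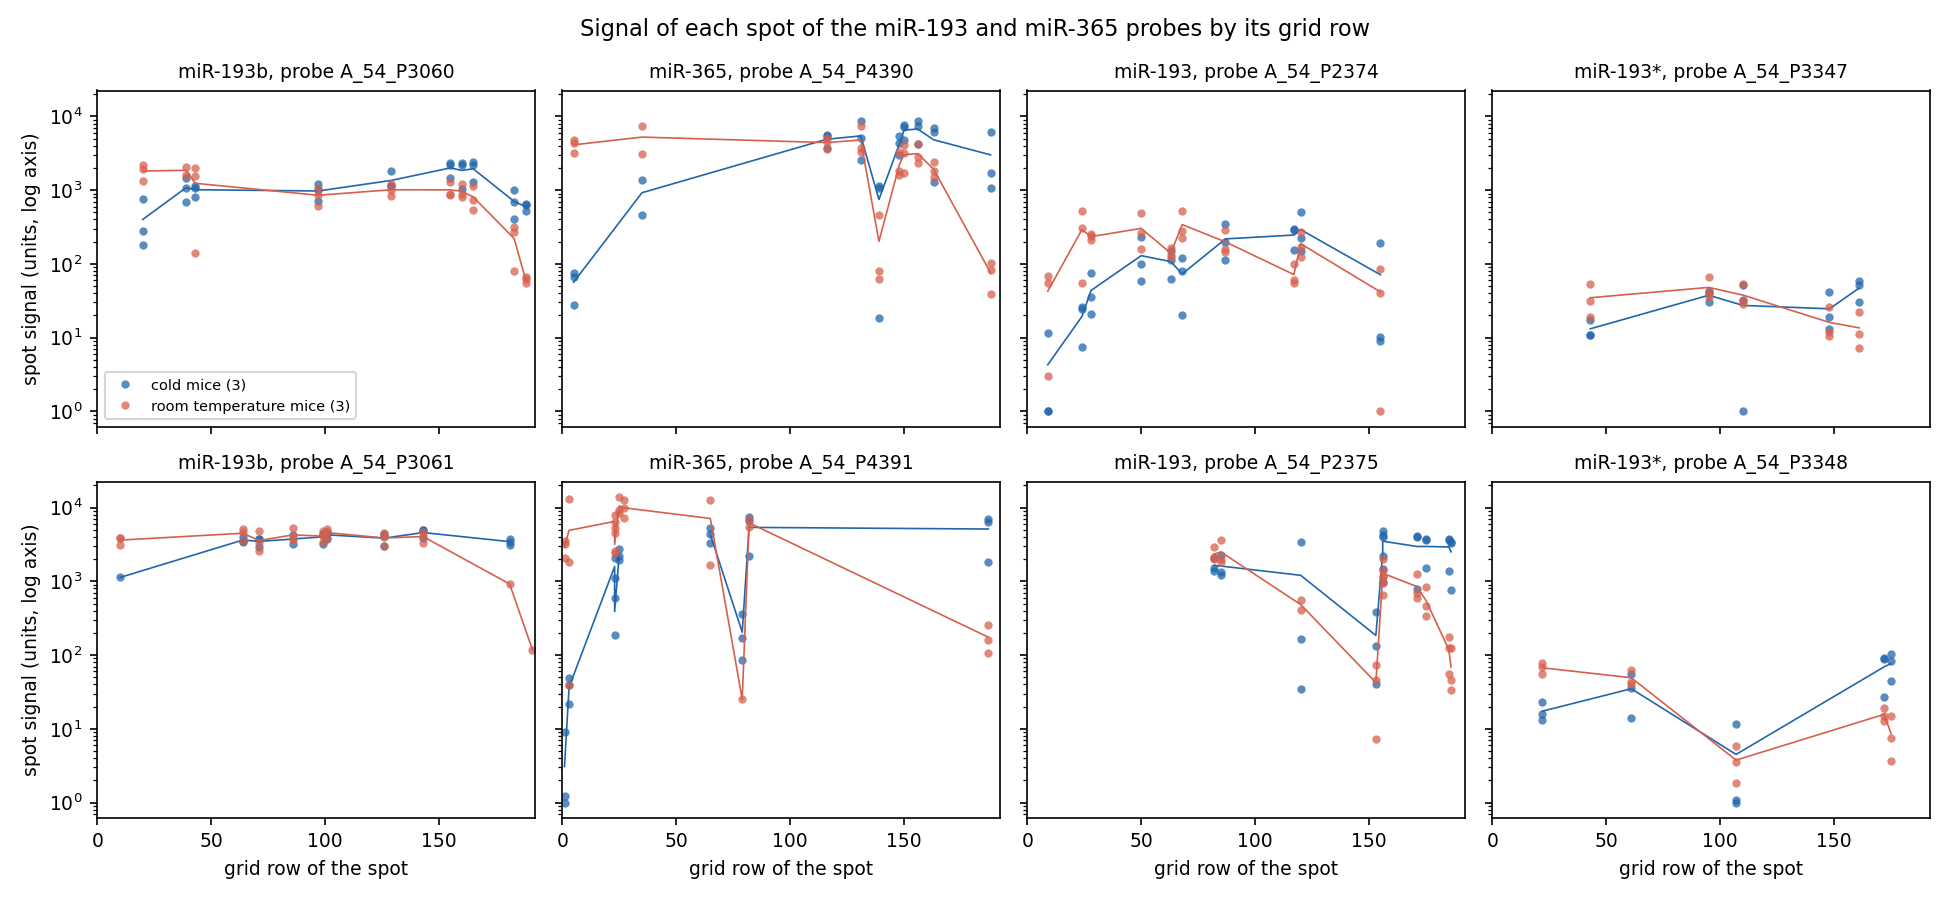
Signal of single spots (units, log axis, values under 1 drawn at 1) of the 8 measured probes against the grid row of the spot, 1 point per mouse and a line through the mean of each group. In the first rows the cold mice lie under the room temperature mice and in the last rows over them, as for A_54_P4391 with 5123 against 175 units in row 187.

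miR-365, which shares the chromosome 16 locus with miR-193b, did not pass the test, and its probes pointed in opposite directions. Averaged over both probes its array-wide levels were 1.27, 2.03 and 2.11 in the cold mice and 1.74, 1.97 and 1.91 at room temperature. Mouse 1 was the lowest of all 6, mice 2 and 3 the highest, and the groups overlapped. The 2 arrays of mouse 1 gave 0.22 and 1.21 in probe A_54_P4391, 0.99 apart, and differed by −0.0014 in A_54_P4390. The change was −0.07 ± 0.23 (SE, n = 3; adjusted p = 0.853, limma, Benjamini-Hochberg), and with the tile scaling −0.14 ± 0.31 (adjusted p = 0.799), where mouse 1 at 0.81 was again the lowest of all. Without mouse 1 the array-wide change was 0.20 (adjusted p = 0.385).

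Probe A_54_P4390 had 7 of its 10 spots in the high rows and gave 2225, 4686 and 4800 units in cold mice and 2590, 2599 and 3370 units at room temperature. Scaled array-wide, it was 1.83, 2.49 and 2.39 against 1.39, 1.57 and 1.26, with no overlap, and it was called higher at 0.83 ± 0.20 (SE, n = 3; adjusted p = 0.027, limma, Benjamini-Hochberg), or 1.77-fold. Probe A_54_P4391 had 6 of its 10 spots in the low rows and gave 1120, 2495 and 3282 units in cold mice and 4184, 4495 and 8350 units at room temperature. It was called lower, at −0.96 ± 0.29 (adjusted p = 0.0492), from 0.71, 1.58 and 1.84 in the cold against 2.08, 2.36 and 2.57 at room temperature, again with no overlap. Called higher by one probe and lower by the other, miR-365 had no direction on which its probes met. The within-mouse difference between these probes was 0.86 ± 0.29 in the cold and −0.93 ± 0.33 at room temperature (SD, n = 3), 1.79 apart, with p = 0.1 in an exact permutation test, 2-sided, the smallest that 3 mice against 3 allow, and 0.14 after Benjamini-Hochberg adjustment over 7 pairs.

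The single spots of miR-365 show how its signal ran with position. In A_54_P4391, the spot in row 1 gave 3.07 units in the cold and 2932 at room temperature, and the spot in row 187 gave 5123 units in the cold and 175 at room temperature, 29.3 times as much. In A_54_P4390, row 5 gave 56.4 and 4119 units, row 188 gave 3011 and 75.6 units, and row 116, near the middle of the grid, gave 4894 and 4417 units. The same miRNA on the same arrays thus read dim at one end of the grid and bright at the other, at opposite ends in the 2 groups. Within tiles the changes drew together, to 0.19 ± 0.27 for A_54_P4390 (adjusted p = 0.678, limma, Benjamini-Hochberg) and −0.47 ± 0.36 for A_54_P4391 (adjusted p = 0.429), a gap between them of 0.67 (exact permutation test, 2-sided, p = 0.1). In A_54_P4390, 8 of the 9 spots measured in all mice had a change above the median change of their band of rows, and in A_54_P4391 it was 1 of 4.

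miR-193, the chromosome 11 relative with the seed of miR-193b, lay higher in 2 of the 3 cold mice. Its array-wide levels were −1.37, −0.42 and −0.49 in the cold mice and −1.74, −1.34 and −1.20 at room temperature. Mouse 1 lay among the room temperature mice and the other cold mice above them. The change was 0.67 ± 0.27 (SE, n = 3; adjusted p = 0.135, limma, Benjamini-Hochberg), it was 0.97 without mouse 1 (adjusted p = 0.0128), and it was 0.38 ± 0.30 with the tile scaling (adjusted p = 0.444). Over the central spots of the grid alone it stood at −0.09 ± 0.24 (adjusted p = 0.829).

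The miR-193 probes differed as those of miR-365 did. Probe A_54_P2375 had 0 spots in the low rows, 3 in the middle and 7 in the high rows, and gave 1065, 2979 and 2511 units in cold mice and 656, 811 and 1385 units at room temperature. It had the largest array-wide change among the 8 probes, 1.59 ± 0.30 (SE, n = 3; adjusted p = 0.0137, limma, Benjamini-Hochberg), or 3-fold, with no overlap between groups. Together its 3 spots in the middle rows read 0.704 times the room temperature signal and its 7 spots in the high rows 4.28 times. Of those 3 middle spots, the ones in rows 82 and 85 were lower in the cold (0.7 and 0.644 times) and the one in row 120 higher (2.49 times). For example, the spot in row 82 gave 1641 units in the cold and 2344 at room temperature, and the spot in row 186 gave 2509 and 68.5 units. Scaled within tiles, A_54_P2375 stood at 0.49 ± 0.31 (adjusted p = 0.33), and over central spots at −0.11 ± 0.21 (adjusted p = 0.728). That central value rests on the spots in rows 82 and 85 alone, as the one in row 120 lies outside the central columns. The central value of miR-193 takes in the same spots.

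Probe A_54_P2374, the dimmer miR-193 probe, gave 59.8, 131 and 170 units in cold mice and 135, 148 and 272 units at room temperature. The groups overlapped in signal, 5 of its 10 spots lay in the low rows, and its array-wide change was −0.26 ± 0.28 (adjusted p = 0.532, limma, Benjamini-Hochberg). Within tiles it was 0.26 ± 0.31 (adjusted p = 0.61). The gap between the miR-193 probes went from −1.84 with the array-wide scaling (exact permutation test, 2-sided, p = 0.1) to −0.22 with the tile scaling (p = 0.5, same exact test).

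miR-193*, the other strand of the miR-193 hairpin, was dim. Its probes A_54_P3345 and A_54_P3346 were well above background on 0 of the 8 arrays, and A_54_P3347 and A_54_P3348 gave 20.6 to 51.1 units per mouse. Averaged over these last probes, its array-wide levels were −4.84, −4.45 and −4.39 in the cold mice and −5.44, −5.32 and −5.14 at room temperature, with no overlap. The change was 0.74 ± 0.16 (SE, n = 3; adjusted p = 0.0218, limma, Benjamini-Hochberg), or 1.66-fold. The call was lost with the tile scaling (0.31 ± 0.16, adjusted p = 0.235) and when any of mice 2 to 6 was left out (0.65 to 0.82, adjusted p of 0.0526 to 0.093), and over central spots the change was 0.05 ± 0.21 (adjusted p = 0.91). With the tile scaling the groups still did not overlap, but only just, at −4.58, −4.39 and −4.34 against −4.62, −5.02 and −4.61.

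Of its probes A_54_P3348 was called, which gave 22.5, 50.1 and 51.1 units in cold mice and 21.8, 23.3 and 36.0 units at room temperature. The array-wide change of this probe was 1.03 ± 0.22 (SE, n = 3; adjusted p = 0.0211, limma, Benjamini-Hochberg) and its tile-scaled change 0.13 ± 0.22 (adjusted p = 0.722). Probe A_54_P3347 gave 23.6, 29.0 and 37.3 units against 25.2, 20.6 and 44.3 units, and its changes were 0.44 ± 0.16 (adjusted p = 0.0865) and 0.48 ± 0.20 (adjusted p = 0.142). Between the 2 arrays of one mouse, first minus second, A_54_P3348 differed by 0.03 (log2) in mouse 1 and 1.16 in mouse 4, and A_54_P3347 by −1.14 and −0.04, against a median absolute difference over all probes of 0.26 and 0.19.

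**Figure D3:**
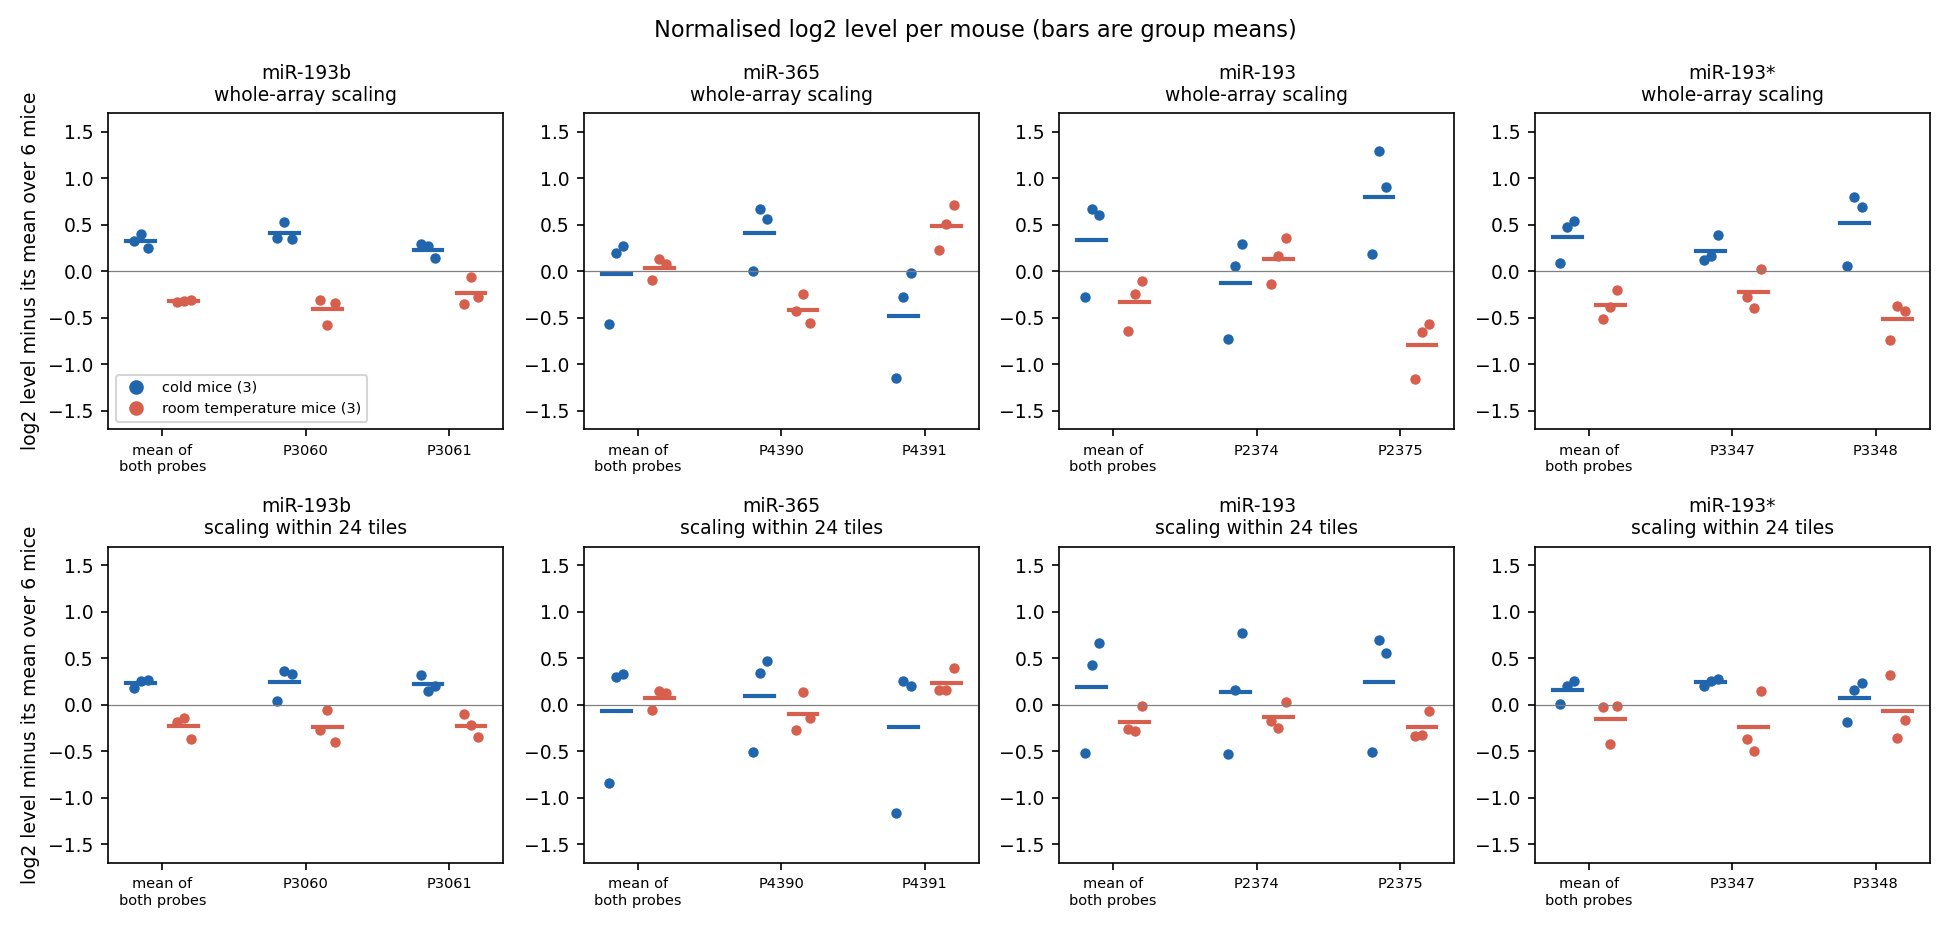
Level of each miRNA and each of its measured probes per mouse, as log2 minus its own mean over the 6 mice, with the array-wide scaling (top) and with scaling within 24 tiles (bottom); points are mice and bars group means. With the arrays of a mouse averaged, only the miR-193b panels keep both probes apart between groups in the same direction in both rows. The miR-365 probes part in opposite directions in the top row and overlap below.

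Counted over probes, 6 of the 8 were called with the array-wide scaling, 5 higher and 1 lower, against 24.6% of all 329 probes. With the tile scaling 0 of the 8 were called, against 12.8% of all. An unadjusted p under 0.05 in limma was held there by 3 of the 8 and by 101 of all 329 probes. Over central spots alone (the middle 4 of the 8 bands of rows, columns 11 to 72), 1 of the 7 probes with such values in all mice was called, against 7.86% of all. That probe was A_54_P3060 of miR-193b, at 0.94 ± 0.18 (SE, n = 3; adjusted p = 0.0295, limma, Benjamini-Hochberg). It has 1 central spot, in row 129. With the array-wide scaling that spot changed by 0.86, beside a median of 0.51 over the spots of bright probes in its band of rows. The central value of miR-193b takes in the same spot. Of the miRNAs, 1 of the 4, miR-193b, was called over central spots, at 0.71 ± 0.14 (adjusted p = 0.0247), against 12.8% of all. The probe not fitted, A_54_P4391 of miR-365, has 1 central spot, in row 82, which was set aside as an outlier in mouse 6 and in the other 5 mice had a mean of 5393 units in the cold and 6215 at room temperature, 0.868 times. miR-365 over central spots therefore rests on A_54_P4390, at 0.63 ± 0.23 (adjusted p = 0.105). The central value of miR-193* rests on 1 spot for each of its measured probes, in row 95 for A_54_P3347 and row 61 for A_54_P3348. Both position settings were chosen after seeing the data. Leaving out 1 mouse at a time kept from 1 (without mouse 2) to 4 (without mouse 1) of the 8 probes past the threshold with the array-wide scaling, fewer than the 6 with all mice.

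Across the array-wide scaling and all 22 other settings miR-193b had a change above 0, from 0.19 without scaling to 0.71 over central spots. Its adjusted p passed the threshold in the array-wide scaling and in 17 of the others. These are not 17 separate checks. The deposited value table, the floor of 0.001 and both changes of the probe filter left its level in every mouse as it was. Of the settings that treat position, row bands and tiles lost its call and central spots kept it. Row bands and tiles also took the median of a probe's spots in place of the mean. The median without any treatment of position lost the call as well (0.57, adjusted p = 0.0578, limma, Benjamini-Hochberg). Which of these changes in processing lost the call was not tested. miR-193* was also above 0 in every setting (0.05 to 1.26) but lost its call in 13 of the 22 others. miR-365 lay between −0.51 and 0.83 and miR-193 between −0.09 and 1.59, so both had settings on either side of 0.

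**Figure D4:**
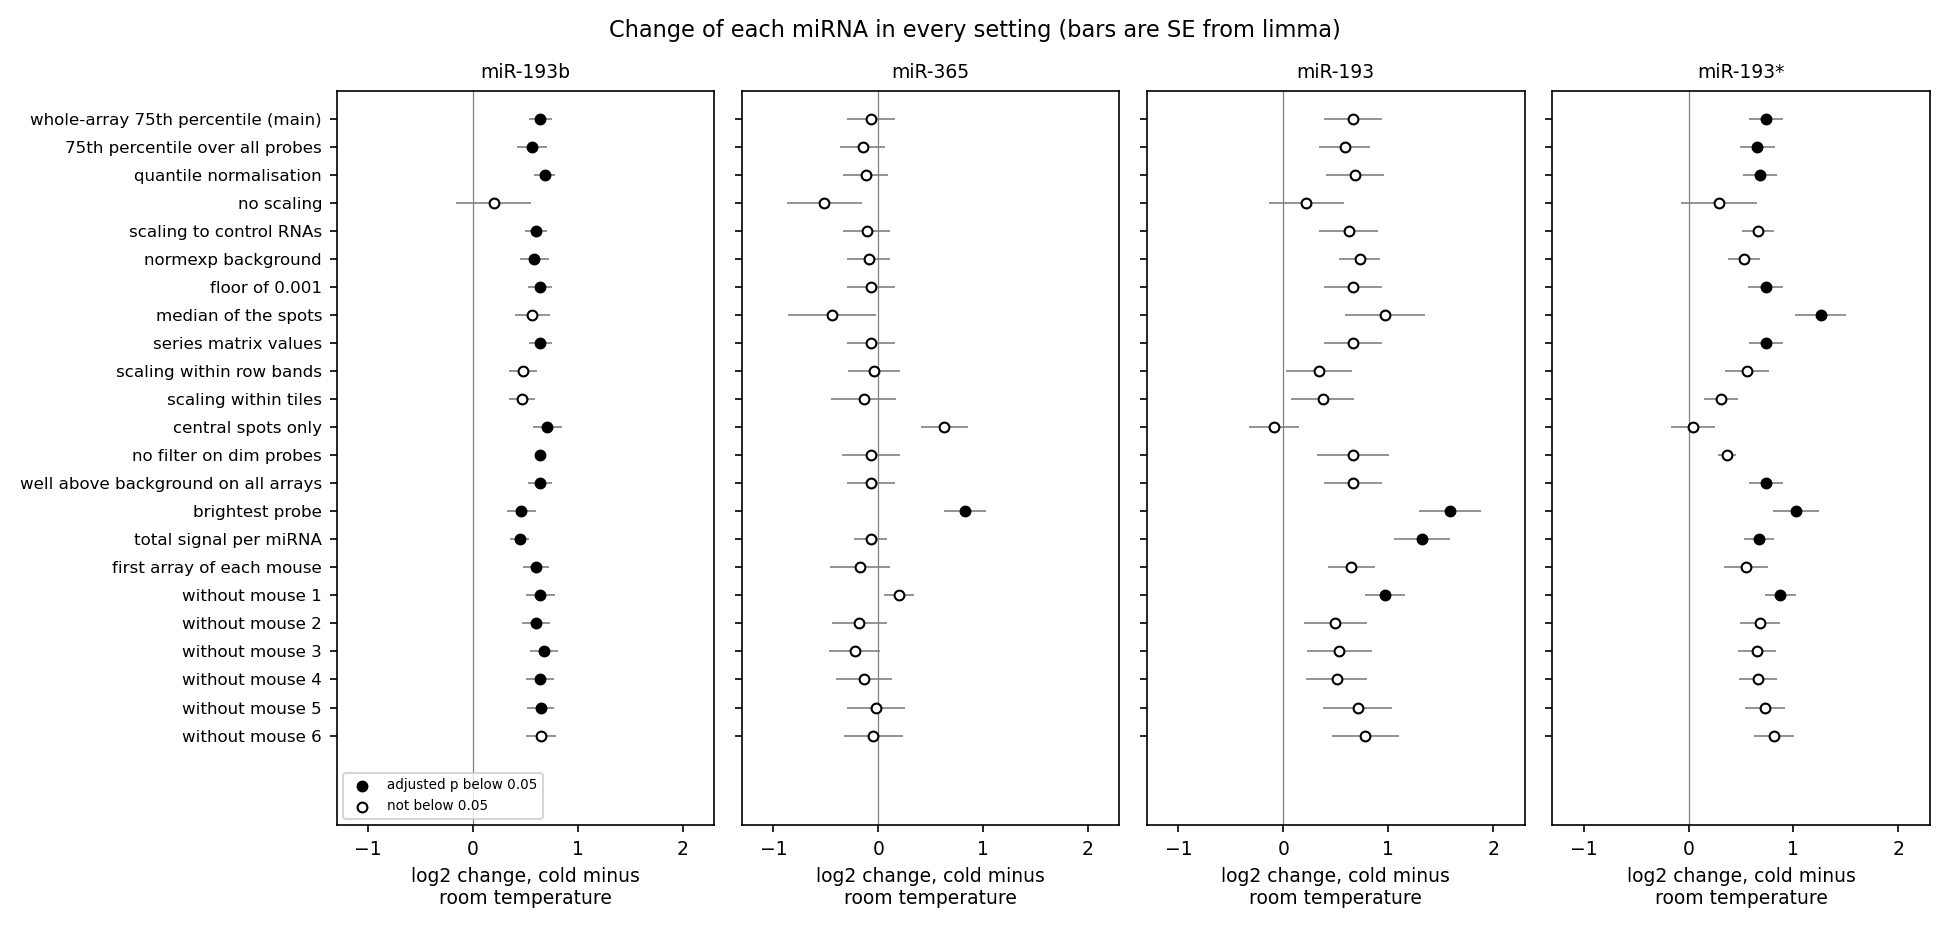
Log2 change, cold minus room temperature, of each miRNA in the array-wide scaling (top row) and the 22 other settings, with the SE from limma; filled points have an adjusted p below 0.05. miR-193b stays between 0.19 and 0.71, while miR-365 lies between −0.51 and 0.83.

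Whether the cluster partners changed by different amounts was tested within each mouse, which leaves out the scaling of the array. The difference in level of miR-193b minus miR-365 was −0.36 ± 0.48 in the cold mice and −1.07 ± 0.11 at room temperature (SD, n = 3), so the changes differed by 0.71. The exact permutation test, 2-sided, gave p = 0.1, the smallest possible with 3 mice a group, and 0.14 adjusted over the 7 pairs. With the tile scaling the changes differed by 0.61 (exact permutation p = 0.1), over central spots by 0.08 (p = 0.9, same exact test), and with the brightest probe of each miRNA by −0.36. For miR-365 the mean over the 8 arrays picked A_54_P4390, the probe called higher, as the brightest, and the mean over the 6 mice would have picked A_54_P4391, with its change of −0.96. The design cannot pass the threshold for any of these pairs. With the array-wide scaling the sign of this one rests on which miR-365 probe is read. There miR-193b changed 1.56-fold, A_54_P4390 1.77-fold and A_54_P4391 0.514-fold. With the tile scaling the 1.38-fold change of miR-193b lay above both probes (1.14-fold and 0.72-fold).

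The miRNAs with a common seed, miR-193b and miR-193, had array-wide changes of 0.64 and 0.67, differing by −0.02 (exact permutation test, 2-sided, p = 0.9), and tile-scaled changes of 0.47 and 0.38, differing by 0.09 (p = 0.9, same exact test). Other settings set them further apart and on either side of 0, by −1.12 with the brightest probe of each (exact permutation p = 0.1), −0.87 with the software's total signal (p = 0.2, same exact test) and 0.80 over central spots (p = 0.1, same exact test). The spread of their within-mouse difference was 0.53 in the cold mice and 0.27 at room temperature (SD, n = 3). miR-193 minus miR-365 differed by 0.73 with the array-wide scaling (exact permutation p = 0.1) and by −0.72 over central spots (p = 0.1, same exact test).

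The miRNA whose pattern over the 6 mice was nearest to that of miR-193b was miR-30d, a member of the miR-30 family that is abundant in fat. The root mean square difference of their centred log2 levels was 0.0508 with the array-wide scaling and 0.0489 with the tile scaling, against a median of 0.375 and 0.31 over 185 miRNAs. It was the nearest in both. The next with the array-wide scaling were miR-467e* (0.0746), miR-188-5p (0.128), miR-93 (0.138) and miR-669n (0.14), and with the tile scaling miR-140*, miR-192, let-7a and miR-705, so no miRNA but miR-30d was among the 5 nearest in both. For the miR-365 probe A_54_P4390, the brighter over arrays, the nearest were miR-132, miR-93, miR-30c-1*, miR-92a and miR-451 with the array-wide scaling (0.186 to 0.227) and miR-27b, miR-181a, miR-139-5p, miR-23b and miR-652 with the tile scaling (0.146 to 0.201). None was shared between these lists of 5. Patterns of 6 mice on arrays with a common slope are a description only.

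Among other miRNAs reported to promote or mark brown fat, 8 of 12 listed were measured, and the brown fat markers miR-378, miR-455, miR-203 and miR-182 were well above background on 8, 8, 8 and 7 of the 8 arrays. Of the 4 listed but not measured, miR-32 and miR-455* were well above background on 4 arrays each and miR-196a and miR-129-5p on 0. With the array-wide scaling 1 of the 8 passed, miR-378, whose hairpin is embedded in Ppargc1b, at 0.97 ± 0.22 (SE, n = 3; adjusted p = 0.0218, limma, Benjamini-Hochberg). It was 0.70 ± 0.21 with the tile scaling (adjusted p = 0.0649), so, like miR-193b, it passed in the array-wide scaling and missed the threshold in the other. Over central spots, where miR-193b kept its call, miR-378 stood at 0.30 (adjusted p = 0.233, limma, Benjamini-Hochberg). Its partner strand miR-378* changed by 0.12 with the array-wide scaling (adjusted p = 0.669, same test) and 0.38 with the tile scaling (adjusted p = 0.116, same test). The median change of the 8 was 0.13, beside −0.02 over all miRNAs, and with the tile scaling 0.33 beside 0.07. With the tile scaling miR-182 was higher (0.65 ± 0.15, adjusted p = 0.0298) and miR-30c lower (−1.06 ± 0.15, adjusted p = 0.00683), where the array-wide changes had been 0.40 (adjusted p = 0.0756) and −0.31 (adjusted p = 0.352). miR-182 and miR-30c are named after their tile-scaled values were seen.

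Some markers of other tissue also differed between the groups. Of 7 striated muscle miRNAs, 5 were measured and 4 were called lower in the cold mice (miR-206 and the miR-133 forms miR-133a, its star strand and miR-133b, with changes of −2.04 to −1.87; limma, Benjamini-Hochberg), with a median of −1.88 over the 5. With the tile scaling the median of the 5 was −1.68, with changes of −1.99 to −1.57 and adjusted p from 0.0478 to 0.0649, and 1 of the 5, miR-133a, was called lower. Summed levels of a list, here and below, are linear multiples of the 75th percentile and not log2. That of the muscle list ran from 1.5 to 6.51 in cold mice and from 7.54 to 11.2 at room temperature. None of the 7 was below background on every array. Of 5 stromal miRNAs 4 were measured and 2, miR-199a-3p (−0.77) and miR-214 (−0.74), were called lower, while miR-143 stood at −0.51 and miR-199a-5p at 0.69, neither passing. With the tile scaling 1 of the 4 was called, miR-214 (−0.56, adjusted p = 0.029), miR-199a-3p stood at −0.43 (adjusted p = 0.111), and the median of the 4 went from −0.63 to −0.26. The stromal list had a summed level of 0.728 to 0.904 in the cold mice and 1.18 to 1.27 at room temperature, and miR-145 was well above background on 0 arrays. The leukocyte list had 0 of 5 called (summed level 0.592 to 1.01 and 1.06 to 1.09), the erythroid list 0 of 2 (17.3 to 27.8 and 12.0 to 15.1), the endothelial list 0 of 2 (8.98 to 12.0 and 11.2 to 12.9), the neural list 0 of 1 (0.0197 to 0.0321 and 0.0295 to 0.0375) and the liver list 0 of 1. Both erythroid miRNAs nevertheless stood higher in the cold. miR-144 was at 0.84 (adjusted p = 0.0524, limma, Benjamini-Hochberg) and miR-451 at 0.65 (adjusted p = 0.0583, same test). Their tile-scaled changes were 0.67 and 0.50. The leukocyte list stood lower, with a median change of −0.42 and −0.21 in the 2 scalings. The liver miRNA miR-122 lay at the floor of 0.01 (linear) in all cold mice and between 0.011 and 0.296 (linear) at room temperature. The 5 epithelial miRNAs were above background nowhere. In whole tissue fewer cells of a type cannot be told apart from less of a miRNA per cell. The part of these markers in the miR-193b difference was not tested.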

How the data were processed

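The deposited scanner files hold spot intensity in linear units after background subtraction, as the authors' software wrote it: Agilent Feature Extraction 10.7.3.1 per the file headers, 9.5.3.1 per the submitters' processing notes. The authors' deposited value table held the same intensities. Flags in the same deposited files (unit "other": probe names, grid rows and columns, outlier and well-above-background flags, per the file headers) selected spots. No spot was saturated, and 2.1% to 2.66% of miRNA spots per array were outliers and left out. The number of arrays limits the precision.

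Spots of a probe were averaged. Arrays were scaled to their own 75th percentile, taken over the 267 probes that passed the background flag on all 8, then floored at 0.01 and put on the log2 scale. Probes were retained if, throughout 1 or both groups, every array had the flag on over 0.5 of the probe's spots (329 of 1712 probes, 189 miRNAs). A miRNA was the mean of its retained probes, and arrays of a mouse were averaged. Cold minus room temperature was fitted with limma 3.58.1 (lmFit, eBayes; R 4.3.3) over all retained miRNAs or probes, and p-values were adjusted by Benjamini-Hochberg (threshold 0.05). Differences between members were tested by exact permutation over mice.

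In the position settings, spots were divided by the median of bright spots in their band of 24 rows or their tile (columns split after 20 and 61), the median was taken per probe, and arrays were scaled as above. For these and for central spots, the choice was made after seeing the data. Normexp used the median spot signal, as the files have no mean. Fits were tested on simulated data.

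The members and lists were chosen with earlier results of these data known. Named miRNAs were the members, the listed brown fat miRNAs past the threshold, and the 5 nearest patterns by root mean square difference. Old array names were matched to arms by hand (the unstarred name is the main arm). The array files name no genome build, and coordinates are those of the RefSeq tables.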

Additional observations from a re-analysis of the deposited data

How the results depend on the processing

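Of 189 miRNAs, 31 passed the threshold, and the count moved by over 1.5 times without scaling (13), with scaling to control RNAs (13), with normexp (7), with scaling within row bands (13), without a filter on dim probes (5), with probes well above background on all arrays only (16), and from 7 to 35 when 1 mouse was left out (14 without mouse 2, 14 without mouse 3, 13 without mouse 5, 7 without mouse 6). Of 329 probes 81 passed, against 47 with the percentile over all probes, 42 without scaling, 43 with control RNAs, 42 with normexp, 28 within row bands, 42 within tiles, 25 over central spots, 0 in limma without a filter (136 at an unadjusted p under 0.05; more probes were tested), and 21 to 69 without 1 mouse (21 without mouse 2, 36 without 3, 42 without 4, 22 without 5, 25 without 6). The split of higher and lower miRNA calls, 18 and 13, was 11 and 17 with the percentile over all probes, 0 and 13 without scaling, 6 and 7 with control RNAs, 3 and 4 with normexp, 13 and 15 with the median of the spots, 14 and 21 with the total signal, 2 and 3 without a filter and 2 and 5 without mouse 6. Normexp moved the median of all miRNAs to 0.21 and central spots to 0.11.

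miR-193b missed the threshold without scaling (0.19), with the median of the spots (0.57), within row bands (0.48), within tiles (0.47) and without mouse 6, and lay between 0.60 and 0.68 when 1 mouse was left out. miR-193* missed it without scaling (0.29), with control RNAs (0.66), normexp (0.53), row bands (0.55), tiles (0.31), central spots (0.046), no filter (0.37), the first array of each mouse (0.55) and without mouse 2, 3, 4, 5 or 6 (0.65 to 0.88 over all 6 mice left out in turn). miR-193 passed with the brightest probe (1.59), total signal (1.32) and without mouse 1 (0.97; range 0.495 to 0.97), and turned sign over central spots (−0.091). miR-365 turned sign with the brightest probe over arrays (0.83, past the threshold at an adjusted p of 0.0244 in limma), central spots (0.63) and without mouse 1 (0.20; range −0.22 to 0.20). Of the probes, A_54_P2374 turned sign within row bands (0.091), tiles (0.26) and without mouse 1 (0.046; range −0.47 to 0.046), A_54_P2375 (−0.11) and A_54_P3348 (−0.12) over central spots, and A_54_P3347 without scaling (−0.0047).

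Of the differences between changes, miR-193b minus miR-193 turned sign with quantile normalisation (0.0017), row bands (0.14), tiles (0.092), central spots (0.80) and without mouse 2, 3 or 4 (−0.33 to 0.15 over all mice), miR-193b minus miR-365 with the brightest probe (−0.36), miR-193 minus miR-365 over central spots (−0.72), A_54_P2374 minus A_54_P2375 over central spots (0.047), and A_54_P3347 minus A_54_P3348 within row bands (0.12), tiles (0.35) and over central spots (0.33). The cause was not tested, and the spot positions given above are a description. No paired analysis was possible because the groups share no mouse number. Signals of 20 to 51 units bound what can be said of miR-193*.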
